A study of Homo sapiens with 34 samples.

Results

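The nuclear genes for the protein subunits of mitochondrial respiratory complexes I to IV were followed through the differentiation of human ESCs toward cardiomyocytes (CMs). The 56 genes were taken from a list of subunit names, and each was read from the RefSeq row with the largest total count over the libraries. They made up 56 of the 23185 gene symbols with a row in the count table: 33 subunits of complex I, 4 of complex II, 7 of complex III and 12 of complex IV. RNA-seq libraries came from H1 cells, an established human embryonic stem cell line, before differentiation (day 0) and 2, 6 and 10 days after its start. Of 34 samples in 15 groups, 30 libraries were used, 2 in each group, which makes 8 at each of days 0, 2 and 6 and 6 at day 10.

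WT cells were H1 cells that had received a lentiviral shRNA to GFP or an empty vector. The 3 knockdown lines were H1 cells that carried a GIPZ lentiviral shRNA to NKX2-5, ZEB2 or ZNF503 and had been selected with puromycin. 1 shRNA line stood for each gene, so the line and the knockdown of its gene cannot be told apart. All groups were taken through the same directed protocol: the GSK3 inhibitor CHIR99021 on the first day, the Wnt inhibitor IWP2 until day 5, and insulin from day 7. ZNF503 shRNA cells at day 10 are not analysed here.

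The respiratory chain sits in the inner mitochondrial membrane and passes electrons from nutrients to oxygen. Complex I (NADH dehydrogenase) and complex II (succinate dehydrogenase, which is also an enzyme of the tricarboxylic acid cycle) feed electrons to ubiquinone, complex III hands them to cytochrome c, and complex IV (cytochrome c oxidase) gives them to oxygen, and the proton gradient built on the way drives ATP synthase. Heart muscle depends on this chain for most of its ATP, and a few complex IV subunits have a separate isoform that is found mainly in heart and skeletal muscle, COX6A2 in place of COX6A1 and COX7A1 in place of COX7A2.

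The promoters of 3 genes are shown because the isoform pair COX6A1 and COX6A2 behaved differently in the results and because COX5B carries 2 of the motifs known from genes of this class. The window of COX7B held none of the motifs searched and is not shown. RefSeq start sites on GRCh38.p14 gave 56 windows for 48 of the 56 genes, and each window holds the 250 bases before a start site, written 5′ to 3′ on the gene's strand. COX7A1, NDUFB9, COX6C, SDHC, CYC1, UQCRB, NDUFS5 and NDUFB5 had no window. Capitals mark an E-box (CAGCTG) and then a MEF2 motif in COX6A2 (chr16:31428361-31428610, minus strand), a pair of NRF1 cores in COX6A1 (chr12:120437863-120438112, plus strand), and an NRF1 core followed by an ETS core in COX5B (chr2:97645812-97646061, plus strand).
COX6A2: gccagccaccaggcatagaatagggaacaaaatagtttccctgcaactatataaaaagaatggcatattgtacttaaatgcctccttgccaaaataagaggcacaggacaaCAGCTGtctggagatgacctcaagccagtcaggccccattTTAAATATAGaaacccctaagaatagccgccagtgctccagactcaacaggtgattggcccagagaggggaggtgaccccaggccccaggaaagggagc
COX6A1: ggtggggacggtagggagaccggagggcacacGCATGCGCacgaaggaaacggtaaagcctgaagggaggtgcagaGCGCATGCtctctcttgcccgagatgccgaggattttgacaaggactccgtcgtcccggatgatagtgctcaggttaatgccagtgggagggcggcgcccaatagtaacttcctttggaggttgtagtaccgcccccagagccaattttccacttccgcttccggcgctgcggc
COX5B: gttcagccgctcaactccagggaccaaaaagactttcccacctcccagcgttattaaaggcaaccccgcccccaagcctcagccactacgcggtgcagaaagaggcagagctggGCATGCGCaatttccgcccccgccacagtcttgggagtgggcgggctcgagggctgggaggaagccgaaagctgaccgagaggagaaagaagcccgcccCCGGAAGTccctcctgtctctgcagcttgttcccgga
The NRF1 core, GCGCATGC on either strand, was found in 9 of 56 member windows (16.1%), against 2.63% of 35116 windows of all genes. The ETS core, CCGGAAGT on either strand, was found in 7 of 56 member windows (12.5%), against 3.42% of 35116 windows of all genes. An E-box was found in 8 of 56 member windows (14.3%), against 14% of 35116 windows of all genes. A MEF2 motif was found in 4 of 56 member windows (7.14%), against 2.80% of 35116 windows of all genes. Those 4 windows belong to COX6A2, NDUFA5 and NDUFA9. The YY1 motif AAGATGGC was found in none of the 56 member windows and in 1.36% of all windows. Both strands were searched for each motif, no matches overlapped each other in the 3 windows shown, and a match describes the letters only.

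Levels are given in CPM, counts scaled to a common library size after TMM factors, and differences as log2 values with their SE from edgeR's quasi-likelihood test, with p-values adjusted by Benjamini-Hochberg across the genes of the fit. A gene was called at a 5% false discovery rate (FDR). Library totals over 1 row per gene were 38765452 to 90798116 counts (day 0), 14629094 to 87840757 (day 2), 13806093 to 61508899 (day 6) and 9189588 to 29548573 (day 10). NKX2-5 was at 0.993 and 0.761 CPM in NKX2-5 shRNA cells at day 6 against 84.2 and 50.5 in WT, and ZNF503 was at 0.611 and 0.648 in ZNF503 shRNA cells against 8.71 and 9.34. ZEB2 was at 54.6 and 57.1 CPM in ZEB2 shRNA cells at day 6 against 96.8 and 94.1 in WT, which was called, and at 55.0 and 54.9 against 117 and 105 at day 10, which was not called. At day 0 the targeted genes were too low for such a check. The study calls the 2 libraries of a group biological replicates but does not say whether they came from separate cultures, and the p-values measure only the spread between these samples, which may be technical. The median log2 difference over all genes tested lay between -0.03 and 0.10 in the 20 comparisons. As a check of the labelled cells, 6 pluripotency markers summed to 5338 to 5469 CPM in WT at day 0 and 142 to 164 at day 10, and 12 cardiomyocyte markers to 55.1 to 66.8 and 70407 to 80130.

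The first question was how the subunit genes moved as WT cells differentiated. The summed level of the 56 genes was 6229 to 6382 CPM at day 0, 4728 to 4759 at day 2, 5972 to 7173 at day 6 and 5216 to 6415 at day 10. The day 2 libraries lay below all others, and the day 0, 6 and 10 libraries overlapped. At day 2, 26 of 56 members had fallen from day 0 and 2 had risen, with a median log2 difference of -0.35, where 23.1% of all genes tested fell and 21.0% rose. Genes of each complex fell: 13 of 33 complex I genes, 3 of 4 of complex II, 4 of 7 of complex III and 6 of 12 of complex IV were called lower. The median was -0.40 to -0.34 with any 1 WT library of day 0 or day 2 left out. The count was 14 without WT day 0 replicate 1, 18 without WT day 0 replicate 2, and 15 without either WT day 2 library.

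COX7B, a small subunit of complex IV on chrX:77154937-77162873 (GRCh37), was at 181 and 189.6 CPM at day 0 and 84.9 and 93.0 at day 2, a log2 difference of -1.01 ± 0.13 (SE, adjusted p = 2.18e-04). SDHA, the flavoprotein subunit of complex II that oxidises succinate, was at 68.4 and 64.0 CPM at day 0 and 36.3 and 33.1 at day 2, a difference of -0.88 ± 0.12 (SE, adjusted p = 2.98e-04). In both genes the libraries of these days did not overlap. SDHC, a membrane anchor of the same complex, went the other way, from 43.6 and 50.5 CPM to 61.0 and 61.8, a difference of 0.43 ± 0.11 (SE, adjusted p = 0.00948). The call of SDHC was lost without WT day 0 replicate 1 and without either WT day 2 library, and held without WT day 0 replicate 2.

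By day 6 few members were called, with 9 of 56 above day 0 and 6 below, against 31.3% and 29.6% of all genes, and a median of 0.07. The 9 that rose were COX6A2, NDUFB5, NDUFA8, NDUFA11, NDUFB2, UQCRC2, NDUFA12, NDUFA2 and SDHC. UQCRC2, a core subunit of complex III, was at 294 and 287 CPM at day 0, 465 and 366 at day 6 and 511 and 427 at day 10, higher in each later library than in either day 0 library, with log2 differences of 0.54 ± 0.13 (SE, adjusted p = 0.00465) at day 6 and 0.75 ± 0.13 (SE, adjusted p = 4.44e-04) at day 10. The count of 15 called members was 7 without WT day 0 replicate 1 and 9 without WT day 0 replicate 2. The median was -0.04 without WT day 6 replicate 1 and 0.24 without WT day 6 replicate 2, so its sign rests on these libraries.

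At day 10, 10 of 56 members were above day 0 and 18 below, where the shares over all genes were 39.1% and 34.7%, and the median was -0.11. The median was 0.04 without WT day 10 replicate 4 and -0.24 without WT day 10 replicate 3, so its sign also rests on single libraries. SDHA was at 160.1 and 132 CPM, a log2 difference from day 0 of 1.20 ± 0.12 (SE, adjusted p = 7.71e-06). NDUFV1, which holds the NADH binding site of complex I, rose from 71.6 and 69.9 to 127 and 112 CPM, a difference of 0.82 ± 0.12 (SE, adjusted p = 1.75e-04). COX6B1, a complex IV subunit on the intermembrane side, went from 187 and 183 to 269.7 and 299 CPM, 0.68 ± 0.12 (SE, adjusted p = 5.85e-04). These 3 genes were higher in both day 10 libraries than in either day 0 library. The WT libraries used are replicates 3 and 4 at day 10 and replicates 1 and 2 at the earlier days. A difference between these replicate sets cannot be told apart from one between day 10 and an earlier day.

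Other members fell by day 10. NDUFS5, an accessory subunit of complex I, was at 247 and 231 CPM at day 0 and 112 and 70.3 at day 10, -1.32 ± 0.18 (SE, adjusted p = 7.87e-05), and UQCRH, the hinge protein of complex III, at 247 and 244 and 133 and 107, -0.97 ± 0.12 (SE, adjusted p = 3.79e-05). Between days 6 and 10, 7 members rose and 19 fell of 56, against 28.3% and 29.2% of all genes, with a median of -0.23. This count of 26 was 16 without WT day 10 replicate 4 and 13 without WT day 6 replicate 1. The median ranged from -0.41 without WT day 10 replicate 3 and -0.37 without WT day 6 replicate 2 to -0.15 without WT day 10 replicate 4 and -0.09 without WT day 6 replicate 1. The cytosolic ribosomal proteins, added after the data were seen, fell in 76 of 77 genes from day 0 to day 10, with a median of -1.40. Their part in the result was not tested.

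**Figure D1:**
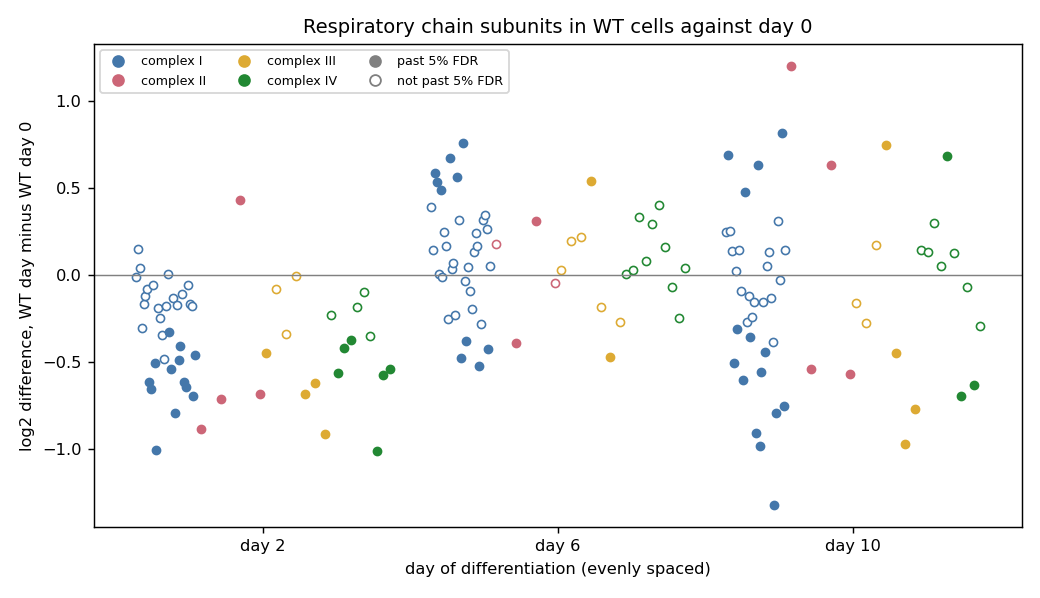
Log2 difference of each member from WT day 0 at days 2, 6 and 10 in WT cells, grouped by complex, with 2 libraries a group; filled points passed the 5% FDR and open points did not, and COX6A2 and COX7A1 are left out. Complex IV and the other complexes lie mostly below 0 at day 2, and members lie on both sides of 0 at days 6 and 10.

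A second question was whether the knockdown lines differed from WT before and early in differentiation. At day 0 in NKX2-5 shRNA cells, 24 of 55 members were higher than in WT and 0 lower, against 8.22% and 7.64% of all genes, and the median was 0.31. Complex IV had 9 of 11 members called (median 0.44) and complex I 12 of 33. UQCRH was at 339.6 and 399.7 CPM against 247 and 244 in WT, 0.57 ± 0.10 (SE, adjusted p = 0.00368), and COX7A2, the isoform of COX7A that most tissues use, at 222 and 254 against 155 and 157, 0.59 ± 0.09 (SE, adjusted p = 0.00175). The count of 24 was 4 without WT day 0 replicate 1 and 2 without WT day 0 replicate 2. The median was 0.22 to 0.35 with any 1 NKX2-5 shRNA or WT library of day 0 left out. Cytosolic ribosomal proteins were higher too, 57 of 78 with a median of 0.39. Smooth muscle markers were higher in 2 of 4 genes tested, at 125 to 274 CPM in sum against 30.5 to 37 in WT, and mesendoderm markers were lower in 3 of 5, at 2.42 to 3.16 against 6.97 to 7.33. Of the erythroid markers 3 were tested and 1 was higher, with a sum over all 10 of 2.59 to 3.21 CPM against 1.15 to 1.33 and with GATA1 at 0. Cardiomyocyte markers were lower in 2 of 10 tested, at 32.7 to 41.8 against 55.1 to 66.8 CPM. By group mean at day 0, the smooth muscle markers summed to 199.2 CPM in NKX2-5 shRNA and 267.4 in ZEB2 shRNA cells. The sum was 17.16 in ZNF503 shRNA and 33.75 in WT cells. The part of these genes in the result was not tested.

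At day 2 the members were higher in NKX2-5 shRNA cells for 42 of 55 genes and lower for none, against 13.0% and 13.6% of all genes, with a median of 0.40. In complex IV 10 of 11 were called, and in complex I 24 of 33. COX7B was at 161 and 145 CPM against 84.9 and 93.0 in WT, 0.75 ± 0.10 (SE, adjusted p = 1.43e-04). The count was 26 without NKX2-5 shRNA day 2 replicate 2. The median was 0.38 to 0.42 with any 1 NKX2-5 shRNA or WT library of day 2 left out. The ribosomal proteins were higher in 75 of 78 genes, median 0.56, and endothelial markers lower in 2 of 2 tested, at 76.8 to 91.0 CPM in sum against 198 to 209. In ZNF503 shRNA cells at day 2, 23 members were higher and 1 (COX7A1) lower of 55, against 13.1% and 13.7% of all genes, with a median of 0.25. The count of 24 was 12 without WT day 2 replicate 1, 11 without WT day 2 replicate 2 and 10 without ZNF503 shRNA day 2 replicate 1. The median was 0.20 to 0.28 with any 1 ZNF503 shRNA or WT library of day 2 left out. In these ZNF503 shRNA cells the ribosomal proteins were higher in 4 of 78 genes (median 0.08). Pluripotency markers were higher in 4 of 6 genes and lower in 1, at 3232 to 3286 CPM in sum against 2709 to 2711 in WT. Mesendoderm markers were lower in 5 of 5, at 375 to 475 against 784 to 825, and smooth muscle markers higher in 1 of 3 tested, at 111 to 131 against 43.6 to 48.2. The part of these markers in the day 2 results was not tested. The comparisons of one day share their WT libraries.

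ZEB2 shRNA cells had no member called at day 0 or day 2 by edgeR, where 2.48% of all genes were higher and 1.46% lower at day 0, and 0.206% and 0.285% at day 2. At an unadjusted p under 0.05 there were 6 members at day 0 and 2 at day 2, and DESeq2 called 1 and 0. In ZNF503 shRNA cells at day 0 edgeR called 1 member, where DESeq2 called 5 and edgeR without a filter on low counts 5. It was NDUFA3, a complex I accessory subunit, higher by 0.39 ± 0.09 (SE, adjusted p = 0.0262), against 3.99% of all genes higher and 3.51% lower. That call was lost without any one of the 4 libraries of WT and ZNF503 shRNA at day 0.

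**Figure D2:**
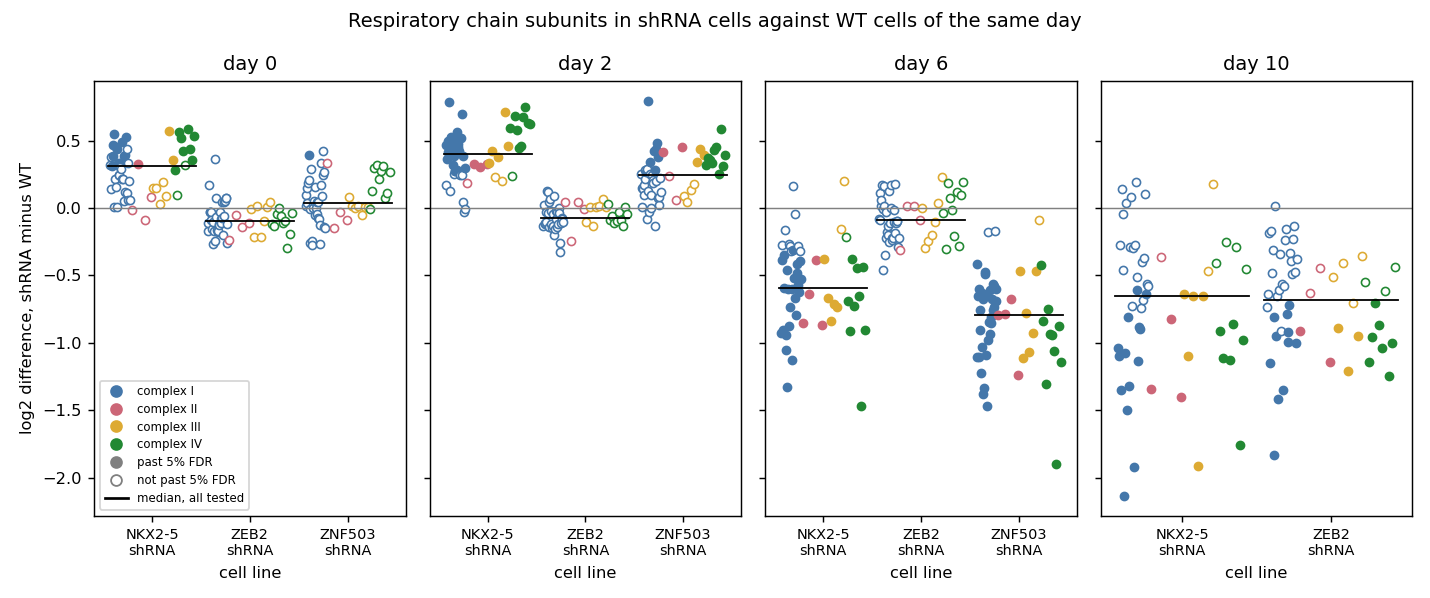
Log2 difference of each member between a knockdown line and WT at the same day, 1 panel per day, with 2 libraries a group; points are members coloured by complex, filled where past the 5% FDR, the bar is the median over all members tested, and COX6A2 and COX7A1 are not drawn. The medians of NKX2-5 shRNA cells run from 0.31 at day 0 and 0.40 at day 2 to -0.59 at day 6 and -0.65 at day 10.

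At day 6 most subunit genes were lower than in WT in NKX2-5 shRNA and ZNF503 shRNA cells. NKX2-5 shRNA cells had 43 of 55 members lower and none higher, against 24.7% lower and 24.5% higher over all genes, with a median of -0.59. ZNF503 shRNA cells had 52 of 55 lower and none higher, against 28.5% and 27.2%, with a median of -0.79. ZEB2 shRNA cells had 1 of 55, COX6A2, against 5.33% lower and 5.67% higher, with a median of -0.09. That call was lost without any one of the ZEB2 shRNA or WT libraries of day 6, and 4 members had an unadjusted p under 0.05. The ZEB2 shRNA median was 0.07 without WT day 6 replicate 1, -0.22 without WT day 6 replicate 2 and -0.03 without ZEB2 shRNA day 6 replicate 1. The summed level of the members was 4368 to 4490 CPM in NKX2-5 shRNA cells, 3548 to 3835 in ZNF503 shRNA cells and 6231 to 6340 in ZEB2 shRNA cells, against 5972 to 7173 in WT, or 67.4%, 56.2% and 95.6% of the WT mean. The comparisons share the 2 WT libraries, so they are not independent, and without WT day 6 replicate 1 the NKX2-5 shRNA count was 27 and the median -0.38. At the fold and FDR thresholds that the study used for day 6, 1 member was lower in NKX2-5 shRNA, 1 in ZNF503 shRNA and 0 in ZEB2 shRNA cells, against 3.42%, 2.91% and 0.225% of all genes.

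In bulk RNA fewer cells of a type and less RNA per cell cannot be told apart, and the markers of other cells moved with the same groups. All 12 cardiomyocyte markers (troponins, myosins, actin and titin) were lower in NKX2-5 shRNA and ZNF503 shRNA cells at day 6, with summed levels of 7543 to 7646 and 10347 to 10890 CPM against 36791 to 45153 in WT, and 10 of 12 were lower in ZEB2 shRNA cells, at 17975 to 19114 CPM. No cardiomyocyte marker was at 0 in these groups. The hepatic and yolk sac markers were higher in 7 of 7 genes in NKX2-5 shRNA cells, at 10391 to 10437 CPM against 608 to 1337 in WT, and in 6 of 7 in ZNF503 shRNA cells, at 6520 to 6755 CPM. In ZEB2 shRNA cells the mesendoderm markers summed to 171 to 188 CPM against 12.9 to 14.3 in WT, with 1 of 5 called (EOMES, 183 and 166 CPM against 11 and 11.1), and 3 of 6 erythroid markers tested were higher, at 24.0 to 25.7 CPM in sum against 9.88 to 14.4, with HBZ, HBA1, HBA2 and GATA1 at 0. Of their other lists, 1 of 6 pluripotency, 1 of 5 endothelial, 1 of 4 smooth muscle and 1 of 7 hepatic and yolk sac markers tested were lower and none higher. Their part in the subunit result was not tested. The ribosomal proteins were lower in 61 of 77 genes in ZNF503 shRNA cells (median -0.42), and in 1 of 77 in NKX2-5 shRNA cells (median -0.03).

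Complex I, with 33 listed subunits, had 24 lower in NKX2-5 shRNA and 31 in ZNF503 shRNA cells at day 6 (medians -0.51 and -0.73). NDUFA8, an accessory subunit on the intermembrane face of complex I on chr9:124906337-124922058, was at 81.9 and 65.7 CPM in WT, 28.1 and 31.0 in NKX2-5 shRNA, 27.3 and 29.5 in ZNF503 shRNA and 56.1 and 59.7 in ZEB2 shRNA cells. The libraries of all 3 lines were below both WT libraries, and the log2 differences were -1.33 ± 0.14 (SE, adjusted p = 8.19e-06) in NKX2-5 shRNA and -1.38 ± 0.14 (SE, adjusted p = 7.24e-06) in ZNF503 shRNA cells, while that of ZEB2 shRNA cells (-0.34) was not called. NDUFA5, an accessory subunit of the matrix arm on chr7:123177051-123197958, was at 93.2 and 89.9 CPM in WT, 45.4 and 43.1 in NKX2-5 shRNA and 27.1 and 51.2 in ZNF503 shRNA cells, differences of -1.06 ± 0.21 (SE, adjusted p = 0.00132) and -1.22 ± 0.22 (SE, adjusted p = 4.81e-04). NDUFA5 has 12 named pseudogenes, which can share its reads. NDUFB7, an accessory subunit of the membrane arm, was called in neither line, with differences of 0.16 in NKX2-5 shRNA and -0.18 in ZNF503 shRNA cells. Its levels were 68.0 and 55.7 CPM in WT, 65.8 and 73.1 in NKX2-5 shRNA and 59.5 and 50.3 in ZNF503 shRNA cells. The libraries of each line overlapped those of WT.

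In complex II all 4 genes were lower in both lines. SDHA was at 77.3 and 69.5 CPM in WT, 42.6 and 39.0 in NKX2-5 shRNA and 42.5 and 42.4 in ZNF503 shRNA cells, differences of -0.85 ± 0.12 (SE, adjusted p = 7.94e-05) and -0.79 ± 0.12 (SE, adjusted p = 1.49e-04). Complex III had 5 of 7 genes lower in NKX2-5 shRNA and 6 in ZNF503 shRNA cells. UQCRC2 was at 261 and 249 CPM in NKX2-5 shRNA and 184 and 214 in ZNF503 shRNA cells against 465 and 366 in WT, differences of -0.71 ± 0.13 (SE, adjusted p = 6.90e-04) and -1.07 ± 0.13 (SE, adjusted p = 3.11e-05). UQCRQ, a small complex III subunit that binds ubiquinone, stayed out of the calls, at 82.2 and 63.6 CPM in WT, 84.3 and 84.3 in NKX2-5 shRNA and 63.1 and 74.2 in ZNF503 shRNA cells.

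Complex IV had the most negative medians among the complexes in ZNF503 shRNA cells, -0.94 over 11 genes, all lower, and -0.69 with 10 lower in NKX2-5 shRNA cells, where complex II stood at -0.75. COX7B was at 192 and 155 CPM in WT, 64.9 and 60.8 in NKX2-5 shRNA, 40.3 and 52.9 in ZNF503 shRNA and 148 and 136 in ZEB2 shRNA cells. The log2 differences were -1.47 ± 0.15 (SE, adjusted p = 4.90e-06) in NKX2-5 shRNA and -1.90 ± 0.15 (SE, adjusted p = 8.42e-07) in ZNF503 shRNA cells, and the ZEB2 shRNA difference of -0.28 was not called. COX5B, a subunit that binds zinc on the matrix side, was at 302 and 217 CPM in WT and 131 and 146 and 104 and 107 in the NKX2-5 shRNA and ZNF503 shRNA cells, differences of -0.91 ± 0.15 (SE, adjusted p = 3.06e-04) and -1.30 ± 0.15 (SE, adjusted p = 2.05e-05). Behind COX6A2, the 9 most negative called members in NKX2-5 shRNA cells were COX7B, NDUFA8, NDUFB5, NDUFA5, NDUFA6, NDUFA1, COX5B, NDUFA12 and COX8A, with log2 differences of -1.47 to -0.90. In ZNF503 shRNA cells they were COX7B, NDUFB5, NDUFA8, NDUFB1, COX5B, SDHD, NDUFA5, COX8A and UQCRB, with differences of -1.90 to -1.11.

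**Figure D3:**
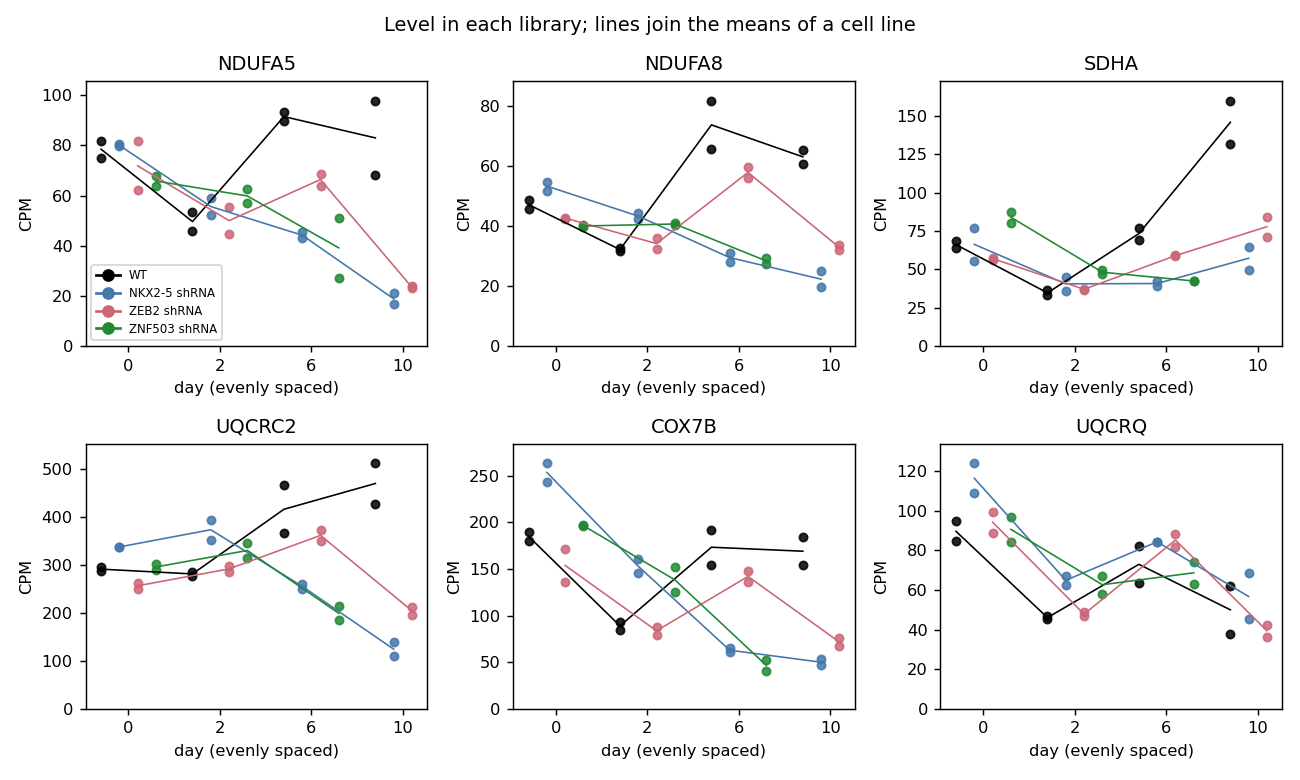
CPM of NDUFA5, NDUFA8, SDHA, UQCRC2, COX7B and UQCRQ in each library by line and day; each point is 1 library, lines join the means of a cell line, and the days are evenly spaced. The NKX2-5 shRNA libraries sit below WT at days 6 and 10 in the first 5 genes, and in UQCRQ they are at 84.3 and 84.3 CPM at day 6, above WT.

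At day 10 the NKX2-5 shRNA cells stayed lower and the ZEB2 shRNA cells joined them. NKX2-5 shRNA cells had 29 of 56 members lower and none higher, against 20.6% lower and 23.3% higher over all genes, and a median of -0.65. ZEB2 shRNA cells had 24 lower and none higher, against 7.68% and 10.5%, and a median of -0.68. The count of 29 in NKX2-5 shRNA cells was 18, and the median -0.43, without WT day 10 replicate 3. The count of 24 in ZEB2 shRNA cells was 1 without WT day 10 replicate 3, 8 without WT day 10 replicate 4 and 0 without either ZEB2 shRNA library. The ZEB2 shRNA median was -0.79 to -0.52 with any 1 ZEB2 shRNA or WT library of day 10 left out. Summed levels were 3188 to 3588 CPM in NKX2-5 shRNA and 3444 to 3593 in ZEB2 shRNA cells against 5216 to 6415 in WT, or 58.3% and 60.5% of the WT mean. These comparisons share the WT libraries, and at the study's thresholds 1 member was lower in NKX2-5 shRNA and 0 in ZEB2 shRNA cells, against 2.85% and 0.482% of all genes. The NKX2-5 shRNA libraries of day 10 are replicates 1 and 2, and the WT libraries used are replicates 3 and 4. A difference between these replicate sets cannot be told apart from one between NKX2-5 shRNA and WT cells.

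The cardiomyocyte markers were lower in 12 of 12 genes in NKX2-5 shRNA cells, at 3674 to 4999 CPM against 70407 to 80130 in WT, and in 8 of 12 in ZEB2 shRNA cells, at 13445 to 18534 CPM. Hepatic and yolk sac markers were higher in 7 of 7 genes in NKX2-5 shRNA cells (39839 to 51256 CPM against 2034 to 5188) and in 5 of 7 in ZEB2 shRNA cells (10481 to 12356 CPM). Erythroid markers were higher in 10 of 10 genes in NKX2-5 shRNA cells, at 2137 to 2692 CPM against 18.3 to 102 in WT, and lower in 6 of 10 in ZEB2 shRNA cells, at 6.67 to 10.5 CPM, where GATA1 was at 0. Their part in the result was not tested.

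NDUFA5 was at 97.9 and 68.2 CPM in WT, 16.6 and 21.1 in NKX2-5 shRNA and 23.9 and 23.0 in ZEB2 shRNA cells, with the knockdown libraries all below the WT libraries. The log2 differences were -2.14 ± 0.25 (SE, adjusted p = 9.06e-04) and -1.83 ± 0.25 (SE, adjusted p = 0.00459). UQCRC2 was at 511 and 427 CPM in WT against 110.0 and 138 in NKX2-5 shRNA and 196 and 213 in ZEB2 shRNA cells, differences of -1.91 ± 0.21 (SE, adjusted p = 7.35e-04) and -1.21 ± 0.21 (SE, adjusted p = 0.00975).

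COX7B was at 184 and 154 CPM in WT, 46.5 and 53.5 in NKX2-5 shRNA and 75.7 and 67.5 in ZEB2 shRNA cells, differences of -1.75 ± 0.19 (SE, adjusted p = 7.74e-04) and -1.25 ± 0.19 (SE, adjusted p = 0.00704). SDHA was at 160.1 and 132 CPM in WT, 64.9 and 49.7 in NKX2-5 shRNA and 84.4 and 71.3 in ZEB2 shRNA cells, differences of -1.34 ± 0.22 (SE, adjusted p = 0.00321) and -0.91 ± 0.22 (SE, adjusted p = 0.0297). By complex, 14, 3, 5 and 7 genes of complexes I, II, III and IV were lower in NKX2-5 shRNA cells (medians -0.61, -1.08, -0.65 and -0.89), and 11, 2, 3 and 8 in ZEB2 shRNA cells (medians -0.58, -0.77, -0.70 and -0.98). Behind COX6A2, the 9 most negative called members were NDUFA5, NDUFB5, UQCRC2, COX7B, NDUFA8, SDHD, NDUFA12, SDHA and NDUFB1 in NKX2-5 shRNA cells (-2.14 to -1.32) and NDUFA5, NDUFB1, NDUFB5, COX7B, UQCRC2, NDUFA12, COX5A, SDHD and COX6C in ZEB2 shRNA cells (-1.83 to -1.03).

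The change from day 0 was then compared between each line and WT in one fit. A difference in change includes the difference at day 0, where the NKX2-5 shRNA median against WT was 0.31. In NKX2-5 shRNA cells 50 of 56 members moved less upward or further down than in WT between days 0 and 6, against 21.4% of all genes, with a median of -0.87, and 42 of 56 between days 0 and 10, against 18.0%, with a median of -0.95. In ZNF503 shRNA cells 51 of 56 did so by day 6 (median -0.93, background 20.0%). ZEB2 shRNA cells had none by day 6 in edgeR (background 4.06%, 1 at an unadjusted p under 0.05, 0 by DESeq2) and 19 of 56 by day 10 (median -0.64, background 5.74%). No member moved further up than in WT in any of the 5 tests, where 19.7%, 19.3% and 3.06% of all genes did so by day 6 in NKX2-5 shRNA, ZNF503 shRNA and ZEB2 shRNA cells, and 18.6% and 6.51% by day 10 in NKX2-5 shRNA and ZEB2 shRNA cells. Without 1 library, the day 10 count in NKX2-5 shRNA cells was 27 (NKX2-5 shRNA day 0 replicate 2) or 25 (WT day 0 replicate 2). The day 10 count in ZEB2 shRNA cells was 4 and 1 without WT day 0 replicates 1 and 2, 11 and 1 without ZEB2 shRNA day 0 replicates 1 and 2, 8 without WT day 10 replicate 3, and 4 and 3 without ZEB2 shRNA day 10 replicates 3 and 4. In ZEB2 shRNA cells by day 6, 1 member was called higher without WT day 6 replicate 1 and 1 lower without WT day 6 replicate 2, and the median was 0.14 and -0.12. Their day 10 median was -0.42 without WT day 10 replicate 3 and -0.72 to -0.53 without any other 1 library of ZEB2 shRNA or WT. The day 10 median of NKX2-5 shRNA cells was -1.05 to -0.72 over the libraries left out. In that test the NKX2-5 shRNA libraries of day 10 are replicates 1 and 2 and those of WT replicates 3 and 4. A difference between these replicate sets cannot be told apart from one between the lines.

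The muscle isoforms were described apart, as their counts were low. COX6A2, the muscle form of subunit VIa on chr16:31439052-31439681 (minus strand), had at most 4 counts in any library at days 0 and 2. In WT it had 47 and 86 counts at day 6 and 191 and 105 at day 10, or 2.04 and 2.07 and 9.84 and 11.3 CPM. Against a floor of 3 counts, the WT level was at least 25.9-fold higher at day 6 and at least 133-fold higher at day 10 than at day 0. In ZEB2 shRNA cells it had 22 and 7 counts at day 6 and 31 and 4 at day 10, differences from WT of -2.30 ± 0.55 (SE, adjusted p = 0.0199) and -4.17 ± 0.97 (SE, adjusted p = 0.0267). Both calls were lost without any one of the 4 libraries compared. In NKX2-5 shRNA cells it had 0 and 4 counts at day 6 and 0 and 9 at day 10, and in ZNF503 shRNA cells 0 and 0 at day 6, at least 15.0-fold lower than WT.

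Its paralog COX6A1, the form that most tissues use, was at 145 and 114 CPM at day 6 and 125 and 122 at day 10 in WT. At day 6 it was at 96.0 and 104 CPM in NKX2-5 shRNA and 81.3 and 73.8 in ZNF503 shRNA cells, differences of -0.38 ± 0.13 (SE, adjusted p = 0.0262) and -0.75 ± 0.13 (SE, adjusted p = 4.24e-04), and at day 10 at 108 and 100.2 in NKX2-5 shRNA and 79.1 and 73.6 in ZEB2 shRNA cells, differences of -0.25 ± 0.17 (SE, adjusted p = 0.271) and -0.71 ± 0.17 (SE, adjusted p = 0.0310). The share of COX6A2 in the counts of both isoforms, which is not scaled by length, was 1.38% (95% interval 1.02% to 1.83%) and 1.78% (95% interval 1.43% to 2.2%) in WT at day 6, by exact binomial intervals that cover counting error only, and 7.28% (95% interval 6.31% to 8.34%) and 8.44% (95% interval 6.96% to 10.1%) at day 10. In ZEB2 shRNA cells at day 10 it was 1.2% (95% interval 0.814% to 1.69%) and 0.231% (95% interval 0.0631% to 0.591%). Both ZNF503 shRNA libraries of day 6 held 0 counts of COX6A2. The WT intervals at day 10 lie above those of both ZEB2 shRNA libraries.

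COX7A1, the muscle form of subunit VIIa on chr19:36641824-36643351, was at 0.240 and 0.157 CPM in WT at day 0 and 1.54 and 0.859 at day 2, and at 2.18 and 1.85 and 5.39 and 6.27 in NKX2-5 shRNA cells, differences of 3.31 ± 0.44 (SE, adjusted p = 8.03e-04) at day 0 and 2.17 ± 0.41 (SE, adjusted p = 0.00172) at day 2. At day 10 it was at 0.618 and 1.61 CPM in WT, 5.44 and 3.02 in NKX2-5 shRNA and 0.247 and 0.0427 in ZEB2 shRNA cells, and neither difference was called (adjusted p = 0.0596 and 0.0687).

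**Figure D4:**
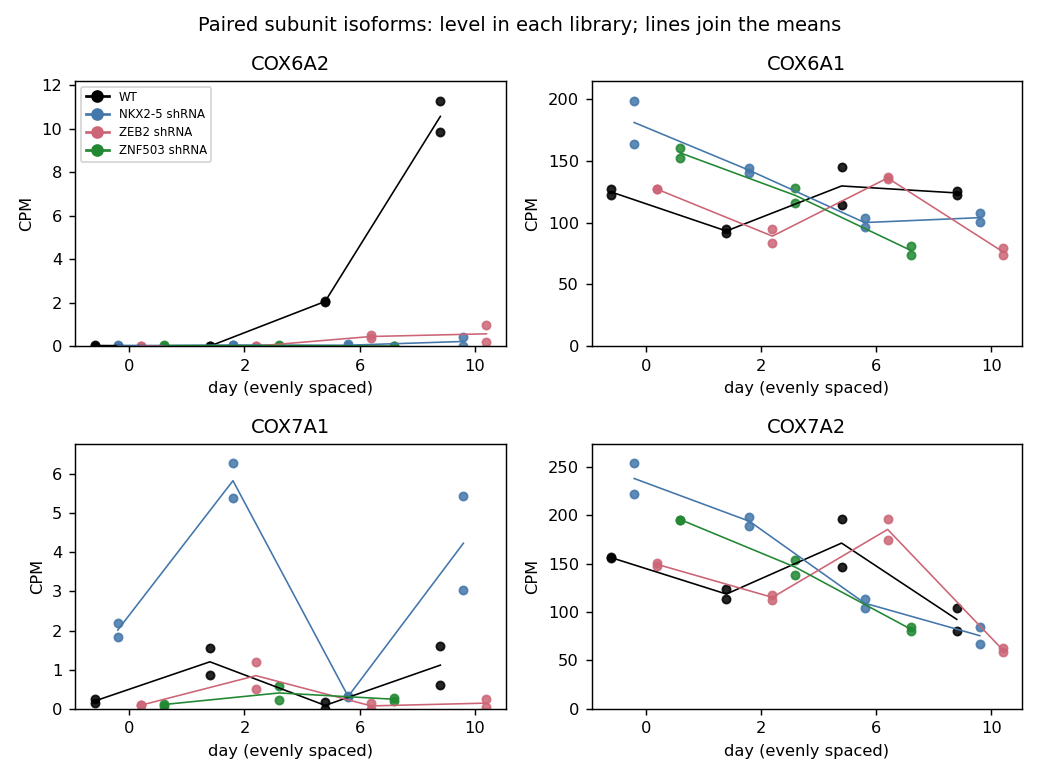
CPM of the muscle isoforms COX6A2 and COX7A1 and of the general isoforms COX6A1 and COX7A2 in each library by line and day; each point is 1 library and lines join the means. By group mean, COX6A2 is highest in WT at day 10 (9.84 and 11.3 CPM), and COX7A1 is highest in NKX2-5 shRNA cells at day 2 (5.39 and 6.27 CPM).

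Genes that work beside the complexes were taken from lists of their own. ATP synthase subunits were lower in 14 of 16 genes in NKX2-5 shRNA and 15 in ZNF503 shRNA cells at day 6 (medians -0.69 and -0.94), and in 10 in NKX2-5 shRNA and 9 in ZEB2 shRNA cells at day 10. Enzymes of the tricarboxylic acid cycle rose in WT in 9 of 14 genes by day 6, and were lower in 10, 11, 9 and 7 genes in those 4 comparisons. Among 41 assembly factors, which build the complexes, 11 were lower in NKX2-5 shRNA and 25 in ZNF503 shRNA cells at day 6, with 16 and 8 at day 10 in NKX2-5 shRNA and ZEB2 shRNA cells. Over all genes the shares lower in these 4 comparisons were 24.7%, 28.5%, 20.6% and 7.68%, and the assembly factors stood at 26.8%, 61.0%, 39.0% and 19.5%, near the background in NKX2-5 shRNA cells at day 6. PPARGC1A, a coactivator of mitochondrial biogenesis, was at 4.56 and 4.71 CPM in WT at day 0, 220.1 and 173 at day 6 and 507 and 363 at day 10. It was at 5.92 and 5.49 CPM in NKX2-5 shRNA and 6.16 and 7.42 in ZNF503 shRNA cells at day 6, and at 111 and 93.3 in ZEB2 shRNA cells at day 10, differences of -5.12 ± 0.17 (SE, adjusted p = 6.12e-10), -4.86 ± 0.17 (SE, adjusted p = 1.33e-09) and -2.10 ± 0.30 (SE, adjusted p = 0.00552). Regulators of mitochondrial biogenesis as a list were split at day 6 (4 higher and 4 lower of 18 in NKX2-5 shRNA cells, 4 and 6 in ZNF503 shRNA cells), and at day 10 had 10 lower and 1 higher in NKX2-5 shRNA and 6 lower in ZEB2 shRNA cells. CYCS, cytochrome c itself, was at 316 and 263 CPM in WT at day 6, 96.5 and 91.8 in NKX2-5 shRNA and 60.3 and 88.8 in ZNF503 shRNA cells, differences of -1.63 ± 0.16 (SE, adjusted p = 5.50e-06) and -1.96 ± 0.17 (SE, adjusted p = 1.61e-06).

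Further members showed the spread within the set. NDUFB5, an accessory subunit of the membrane arm of complex I, was at 179 and 125 CPM in WT at day 10, 34.0 and 45.9 in NKX2-5 shRNA and 55.0 and 64.7 in ZEB2 shRNA cells, differences of -1.92 ± 0.25 (SE, adjusted p = 0.00138) and -1.35 ± 0.25 (SE, adjusted p = 0.0122). NDUFS1, a core subunit of complex I and a carrier of iron-sulphur clusters, was at 260.4 and 233 CPM in WT at day 6, 157 and 155 in NKX2-5 shRNA and 129 and 154 in ZNF503 shRNA cells, differences of -0.67 ± 0.12 (SE, adjusted p = 5.00e-04) and -0.81 ± 0.12 (SE, adjusted p = 1.20e-04). COX4I1, the general form of complex IV subunit 4, was at 246 and 219.9 CPM in WT, 207 and 196 in NKX2-5 shRNA and 171 and 178 in ZNF503 shRNA cells, of which the NKX2-5 shRNA difference (-0.22) was not called and the ZNF503 shRNA difference (-0.42) was. Over the 15 groups, the highest group mean was in NKX2-5 shRNA cells at day 0 for 28 of the 56 members, in WT at day 6 for 9 and in NKX2-5 shRNA cells at day 2 for 8. The lowest was in ZEB2 shRNA cells at day 10 for 22, in NKX2-5 shRNA cells at day 10 for 17 and in ZNF503 shRNA cells at day 6 for 11. Between its highest and lowest group means, NDUFV3 of complex I differed 1.67-fold, the least of the members, and UQCRH 5.93-fold, the most apart from COX6A2 and COX7A1.

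For the 4 comparisons against WT with the most members called lower, the remaining marker lists were as follows. Erythroid markers at day 6 summed by group mean to 31.65 CPM in NKX2-5 shRNA and 4.715 in ZNF503 shRNA cells, against 12.15 in WT. Among them HBZ was at 0 in NKX2-5 shRNA cells, HBA1 and HBA2 in ZNF503 shRNA cells, and HBZ, HBA2 and GATA1 in WT. Of 6 pluripotency markers, NKX2-5 shRNA cells had 1 higher and 1 lower than WT at day 6 and 2 higher and 0 lower at day 10, ZNF503 shRNA cells 3 higher and 0 lower at day 6, and ZEB2 shRNA cells 2 higher and 0 lower at day 10. Of 5 mesendoderm markers, NKX2-5 shRNA cells had 0 higher and 2 lower than WT at day 6 and 0 higher and 0 lower at day 10, ZNF503 shRNA cells 0 higher and 1 lower at day 6, and ZEB2 shRNA cells 1 higher and 0 lower at day 10. Of 5 endothelial markers, NKX2-5 shRNA cells had 0 higher and 2 lower than WT at day 6 and 4 higher and 1 lower at day 10, ZNF503 shRNA cells 0 higher and 2 lower at day 6, and ZEB2 shRNA cells 2 higher and 0 lower at day 10. Of 4 smooth muscle markers, NKX2-5 shRNA cells had 0 higher and 3 lower than WT at day 6 and 0 higher and 1 lower at day 10, ZNF503 shRNA cells 1 higher and 2 lower at day 6, and ZEB2 shRNA cells 0 higher and 0 lower at day 10. The part of these cells in the subunit results was not tested. Of 8 tested subunits outside the 56 and cytochrome c, NKX2-5 shRNA cells had 0 higher and 4 lower than WT at day 6 and 0 higher and 2 lower at day 10, ZNF503 shRNA cells 0 higher and 7 lower at day 6, and ZEB2 shRNA cells 2 higher and 2 lower at day 10. Over all genes 24.7%, 20.6%, 28.5% and 7.68% were lower in these comparisons, in that order, and 24.5%, 23.3%, 27.2% and 10.5% higher. The 2 of 8 lower in NKX2-5 shRNA cells at day 10 lay near that share.

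Many members have copies that could take their reads. 33 of the 56 have named pseudogenes and 32 overlap another gene, and the counting method does not state whether strand was used. At day 6 in NKX2-5 shRNA cells 17 of 22 members without a named pseudogene were lower, and 26 of 33 with one. For ZNF503 shRNA cells the counts were 19 of 22 and 33 of 33. At day 10 they were 10 of 23 and 19 of 33 in NKX2-5 shRNA and 5 of 23 and 19 of 33 in ZEB2 shRNA cells. Over all genes 24.7%, 28.5%, 20.6% and 7.68% were lower in these comparisons, in that order. Of members with no overlapping gene, 18 of 23, 22 of 23, 14 of 24 and 10 of 24 were lower. Of members with neither, 4 of 5, 4 of 5, 3 of 6 and 0 of 6 were lower.

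**Figure D5:**
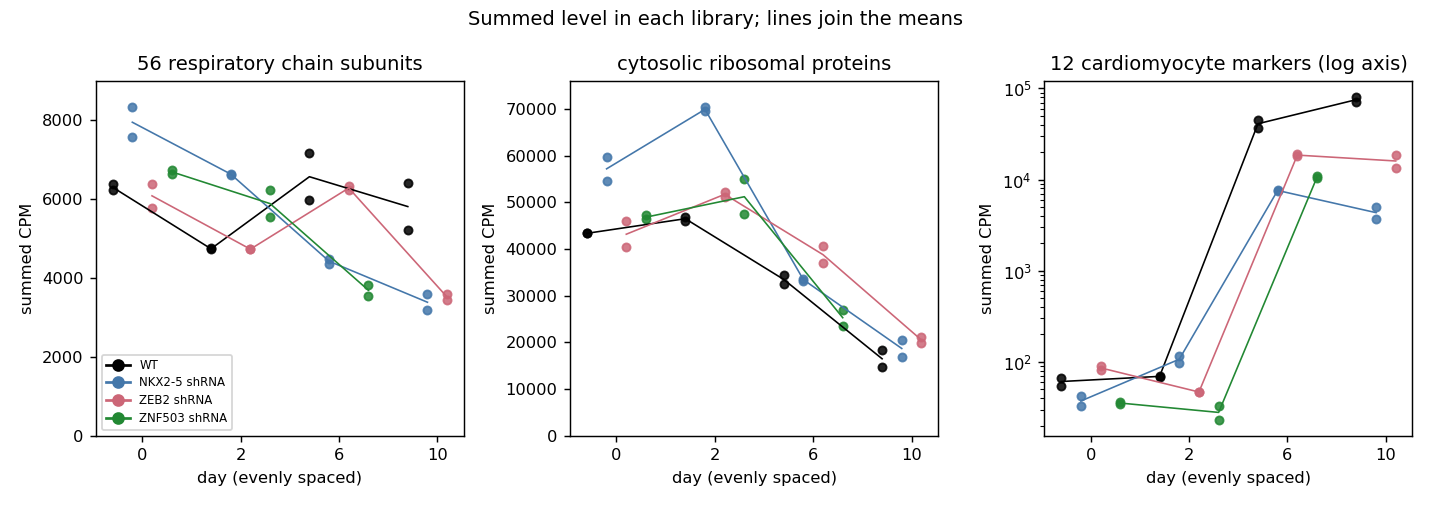
Summed CPM of the 56 members, of the cytosolic ribosomal proteins and of the 12 cardiomyocyte markers in each library by line and day, with a log axis for the cardiomyocyte markers only. The members span 3188 to 3588 CPM in NKX2-5 shRNA cells at day 10 to 7576 to 8334 in the same line at day 0, while the cardiomyocyte markers span a far wider range.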

How the data were processed

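RNA was sequenced from total RNA libraries (Illumina TruSeq Stranded Total RNA). The authors aligned reads to hg19 (GRCh37) with TopHat2 2.0.14 and Bowtie2 2.2.1.0, used SAMtools 0.1.19.0, and counted reads over RefSeq gene regions with RSeQC, and they deposited these raw counts for each RefSeq accession. Of 41627 accessions, 40281 (96.8%) matched a gene symbol. 4 columns (WT and ZEB2 shRNA day 10, replicates 1 and 2) hold 42704 rows, 1077 more than the accessions, so they could not be paired with genes and were set aside. 1 row per gene, that with the largest total, was kept.

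Counts were tested with edgeR 4.0.16 (R 4.3.3, limma 3.58.1; glmQLFit, glmQLFTest, TMM, filterByExpr), after a check on simulated data. One fit per day held all its groups and gave the comparisons with WT, one fit of the WT groups gave the changes over time, and one fit of all lines at 2 days gave the differences in change. p-values were adjusted by Benjamini-Hochberg over all genes tested and called at 5% FDR. SE is the log2 difference over the square root of F. Folds of genes with at most 3 counts in every library of a group are bounds from that floor, and COX6A2 at its bound leaves the medians as they are. The members and gene lists were chosen with earlier results of these data known, and the ribosomal proteins were added after the data were seen. Named members were those past the threshold whose libraries did not overlap, up to 10 rises and 10 falls at days 6 and 10 and up to 4 and 4 at days 0 and 2 and between days 6 and 10 in WT, up to 3 each way in the tests of a difference in change, the COX6A and COX7A isoforms, and up to 3 rises and 3 falls of a list. UQCRQ, NDUFB7, NDUFS1, COX4I1 and NDUFV3 were named outside this rule after their values were seen, as were SDHA and UQCRC2 at day 6 and SDHA in ZEB2 shRNA cells at day 10, which carry a gene across days. DESeq2 1.42.0, RLE factors, no filter, summed rows, a replicate block, the study's thresholds and leaving out each library were the alternatives. Depth per library ranged from 9189588 to 90798116 counts.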

Additional observations from a re-analysis of the deposited data

Results flagged for a closer look

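The change from day 0 was tested for a difference between each shRNA line and WT in one fit, and the values here passed that test. Such a difference includes the one at day 0, where the NKX2-5 shRNA median against WT was 0.31. By day 6 the change differed for 50 of 56 members in NKX2-5 shRNA cells and for 51 of 56 in ZNF503 shRNA cells, all toward lower levels. Over all genes 21.4% and 20.0% differed toward lower levels in these tests. In NKX2-5 shRNA cells the most negative differences in change on the log2 scale were -1.92 ± 0.19 (SE, adjusted p = 5.32e-07) for COX7B, -1.50 ± 0.17 (SE, adjusted p = 2.22e-06) for NDUFA8 and -1.49 ± 0.19 (SE, adjusted p = 1.20e-05) for COX5B. In ZNF503 shRNA cells COX6A2 was the most negative called member. It held 0 counts in each ZNF503 shRNA library of day 6, so it was left out of this ranking. Behind COX6A2, the most negative differences in ZNF503 shRNA cells were -1.97 ± 0.19 (SE, adjusted p = 7.01e-07) for COX7B, -1.60 ± 0.20 (SE, adjusted p = 7.50e-06) for COX5B and -1.46 ± 0.22 (SE, adjusted p = 5.26e-05) for NDUFB5.

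By day 10 the change differed for 42 of 56 members in NKX2-5 shRNA cells and for 19 of 56 in ZEB2 shRNA cells, again all toward lower levels. The shares over all genes were 18.0% and 5.74%. The 3 most negative members in NKX2-5 shRNA cells were NDUFB5 at -2.25 ± 0.29 (SE, adjusted p = 2.16e-04), COX7B at -2.21 ± 0.22 (SE, adjusted p = 5.73e-05) and NDUFA5 at -2.16 ± 0.28 (SE, adjusted p = 2.51e-04). In ZEB2 shRNA cells they were NDUFA5 at -1.72 ± 0.28 (SE, adjusted p = 0.00287), NDUFB5 at -1.22 ± 0.28 (SE, adjusted p = 0.0164) and NDUFB1 at -1.22 ± 0.24 (SE, adjusted p = 0.00840). The tests of different lines share the WT libraries. In the NKX2-5 shRNA test by day 10, a difference between day 10 replicates 1 and 2 (NKX2-5 shRNA) and 3 and 4 (WT) cannot be told apart from the line. Without 1 library the count in ZEB2 shRNA cells ranged from 1 to 21, and in NKX2-5 shRNA cells at day 10 from 25 to 49.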

How the results depend on the processing

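Under the fold and FDR thresholds of the study in place of the 5% FDR alone, 1 member was called in each of the 4 comparisons over time in WT, in NKX2-5 shRNA cells at days 0, 2, 6 and 10 and in ZNF503 shRNA cells at day 6, and 0 in ZNF503 shRNA cells at days 0 and 2, in ZEB2 shRNA cells at days 6 and 10 and in the 4 tests of a difference in change that had calls. Without a filter on low counts, 1 member was called in ZEB2 shRNA cells at day 0, 5 in ZNF503 shRNA cells at day 0 and 2 in ZEB2 shRNA cells at day 6. DESeq2 called 1 in ZEB2 shRNA and 5 in ZNF503 shRNA cells at day 0, and summing all rows of a gene left 0 in ZEB2 shRNA cells at day 6. With RLE factors in place of TMM each count stayed within 1.5 times. Member medians moved by more than that for WT at day 6 (0.02 with RLE factors and with DESeq2) and WT at day 10 (-0.17 with RLE factors and with DESeq2, -0.25 without a filter, -0.37 against day 6 without a filter). Deviations from the group means, over all genes kept by the filter, correlated between -0.13 and 0.12 for equal replicate numbers. No pairing by number was seen, but such a correlation over all genes cannot exclude one that affects few genes. A replicate block gave 28 calls (19 higher, 9 lower) for WT at day 6 and 0 for ZNF503 shRNA cells at day 0. For WT this fit also left out the day 10 libraries, so the effect of the block cannot be told apart from that of the smaller fit. No paired analysis was possible for the day 10 comparisons of WT over time or of NKX2-5 shRNA cells because the groups share no replicate number.

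Leaving out 1 library at a time gave 14 to 18 called members in WT at day 2, 7 to 16 at day 6, 20 to 37 at day 10 and 13 to 35 between days 6 and 10. In NKX2-5 shRNA cells the count was 2 to 29 at day 0, 26 to 33 at day 2, 27 to 46 at day 6 and 18 to 36 at day 10. ZNF503 shRNA cells gave 0 each time at day 0, 10 to 19 at day 2 and 45 to 52 at day 6, and ZEB2 shRNA cells gave 0 each time at days 0, 2 and 6 and 0 to 8 at day 10. For the differences in change it was 44 to 51 and 25 to 49 at days 6 and 10 in NKX2-5 shRNA, 44 to 52 at day 6 in ZNF503 shRNA, and 0 to 1 and 1 to 21 at days 6 and 10 in ZEB2 shRNA cells. A fit that leaves 1 library in a group assumes that it varies like the other groups.

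For 163 results of single named members, 1522 alternative values were computed, of which 1358 kept direction and call, 138 lost the call, 12 gained one and 14 changed sign, in 10 results. Over the libraries left out in turn, the log2 difference of WT from day 0 at day 6 ranged from -0.11 to 0.25 in COX6A1 and -0.0743 to 0.36 in COX7A2, that of WT day 10 from day 6 from -0.22 to 0.15 in COX6A1, that of ZEB2 shRNA cells at day 6 from -0.0958 to 0.27 in COX6A1 and -0.0795 to 0.35 in COX7A2, and the difference in change to day 6 from -0.11 to 0.24 in COX6A1 and -0.0017 to 0.41 in COX7A2 of ZEB2 shRNA cells and -2.50 to 3.54 in COX7A1 of NKX2-5 shRNA cells. In COX6A1, WT at day 10 was at -0.0163 from day 0 with RLE factors and with DESeq2 and at -0.0980 without a filter, and ZEB2 shRNA cells at day 0 were at 0.0074 without a filter and at -0.0244 to 0.0237 over the libraries left out. None of these passed the 5% FDR. The causes were not tested. The shallowest library, at day 10, held 9189588 counts, which limits the genes with few counts, COX6A2 and COX7A1.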
